A study of Mus musculus with 6 samples.

Results

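The cytosolic ribosomal protein genes were taken from the raw count table by name, as every row called Rpl or Rps with a number and at most a short suffix, together with Rplp0, Rplp1, Rplp2 and Rpsa. The rule found 88 of the 20140 listed genes. Of these, 77 are the core genes, 46 for the large and 31 for the small subunit. A further 5 are paralogs (Rpl3l, Rpl22l1, Rpl39l, Rps27l and Rpl7l1), and 6 are retrocopies or pseudogene-like copies (Rpl32l, Rpl6l, Rps12l1, Rps3a2, Rps3a3 and Rps4l). Fau, Rack1 and Rpl36al, which also belong to the ribosome or its gene families, do not match the names of the rule and were counted separately. After the filter on low counts 86 of the 88 were tested. Rpl3l and Rpl39l were not.

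The data are poly(A)-selected RNA-seq of whole mouse liver on day 21, with 2 livers in each of 3 groups. The labels call the groups control, intra-C and intra-S and give PBS for the first and the CT26 cell line for the other two. By the study's description of its models, the control livers are sham livers (PBS), intra-C is CT26 implanted in the cecum, and intra-S is CT26 injected into the spleen. They are called sham, premetastatic niche (PMN) and metastasis livers here. CT26 is a mouse colorectal carcinoma line. The study gives BALB/c as the strain of these models, and the labels give no age, sex or genotype. Route of implantation and group changed together, so they cannot be told apart. The labels describe the samples as all liver cells, and the 7 hepatocyte markers summed to between 103500 and 176600 CPM (counts relative to library size, scaled by TMM) in every liver. In bulk tissue, fewer cells of a type and less RNA per cell cannot be told apart. The labels do not say more of the 2 livers of a group than that they are replicates. In the main test a p-value sets a group difference against a spread between livers estimated over all 3 groups. The metastasis livers therefore also enter the p-values of PMN against sham.

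Ribosomal proteins surround the ribosomal RNA in a large and a small subunit, and a ribosome needs about equal numbers of nearly all of them. Their mRNAs are short, abundant and mostly begin with a run of pyrimidines, the 5′ TOP motif, through which mTORC1 and the RNA-binding protein LARP1 set how strongly they are translated. In liver, an organ that exports most plasma proteins, translation is a large part of the work of the hepatocyte. Free Rpl5 and Rpl11 bind Mdm2, the ligase that keeps p53 low, when ribosome assembly fails.

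The starts of a few genes on which the results turn are printed to show the motif. Each window holds 30 bases, 15 on either side of the RefSeq start (build GRCm38.p6), on the transcript strand. Capitals mark a run of a C and at least 4 further pyrimidines that begins within 20 bases of the start. Rpl35a and Rps27l have several annotated starts, of which the one with a run is shown.
Rpl35a, chr16:33056467-33056496, plus strand: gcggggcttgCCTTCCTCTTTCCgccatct
Rps27l, chr9:66946071-66946100, plus strand: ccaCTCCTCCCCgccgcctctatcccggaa
Rps2, chr17:24720048-24720077, plus strand: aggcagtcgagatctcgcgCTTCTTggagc
Rpl28, chr7:4792950-4792979, plus strand: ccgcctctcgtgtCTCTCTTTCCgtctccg
Rps6, chr4:86857353-86857382, minus strand: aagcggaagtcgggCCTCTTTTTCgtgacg
Rpl38, chr11:114668565-114668594, plus strand: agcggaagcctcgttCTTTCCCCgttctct
Rpl27, chr11:101442230-101442259, plus strand: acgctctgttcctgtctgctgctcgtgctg
Rpl35a, Rpl28, Rps6 and Rpl38 carry a run of 8 to 13 bases that covers or touches the annotated start. Rpl27, among the lowest members in PMN livers, holds none by this definition. Nor does Rpl41, whose PMN value was positive with TMM, as were those of Rplp0 and Rps3, where a run of 5 bases begins only at base 14 and base 20, counting the start as base 1.

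Promoters were found for 63 of the 88 members. The 57 core genes among them have 67 annotated starts, and a pyrimidine run lay near 49 of these (73.1%), against 47.5% of all 32851 promoters of the same length. On the other strand the shares were 41.8% and 52.1%. The letters CCGGAAG, a core of ETS-family sites, stood on either strand of 25 of the 67 core promoters (37.3%) and in 8.86% of all promoters of 300 bases. GCCATNTT, a YY1-like sequence, stood in 15 (22.4%) and in 6.05%. The motifs can overlap at their ends on opposite strands, so their counts are not independent. These are matches of letters, and no binding was measured. The core genes lie on 19 chromosomes.

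The level of the members spanned from under 1 to over 1000 TPM (abundance scaled for gene length and library total). Rpl41, which encodes the smallest ribosomal protein, had the highest mean in the large subunit, with 1276 and 1516 TPM in sham, 1424 and 1433 in PMN, and 1170 and 2070 in metastasis livers. The order of the livers crossed for Rpl41, and only the second metastasis liver stood clear above the rest. At the other end, Rpl21 stood between 2.02 and 3.55 TPM and Rpl29 between 2.41 and 3.93 TPM, although the ribosome uses their products like the others. The lowest mean in the large subunit was that of Rpl3l, at up to 0.128 TPM, and in the small subunit that of Rps12l1, at up to 1.47 TPM.

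**Figure D1:**
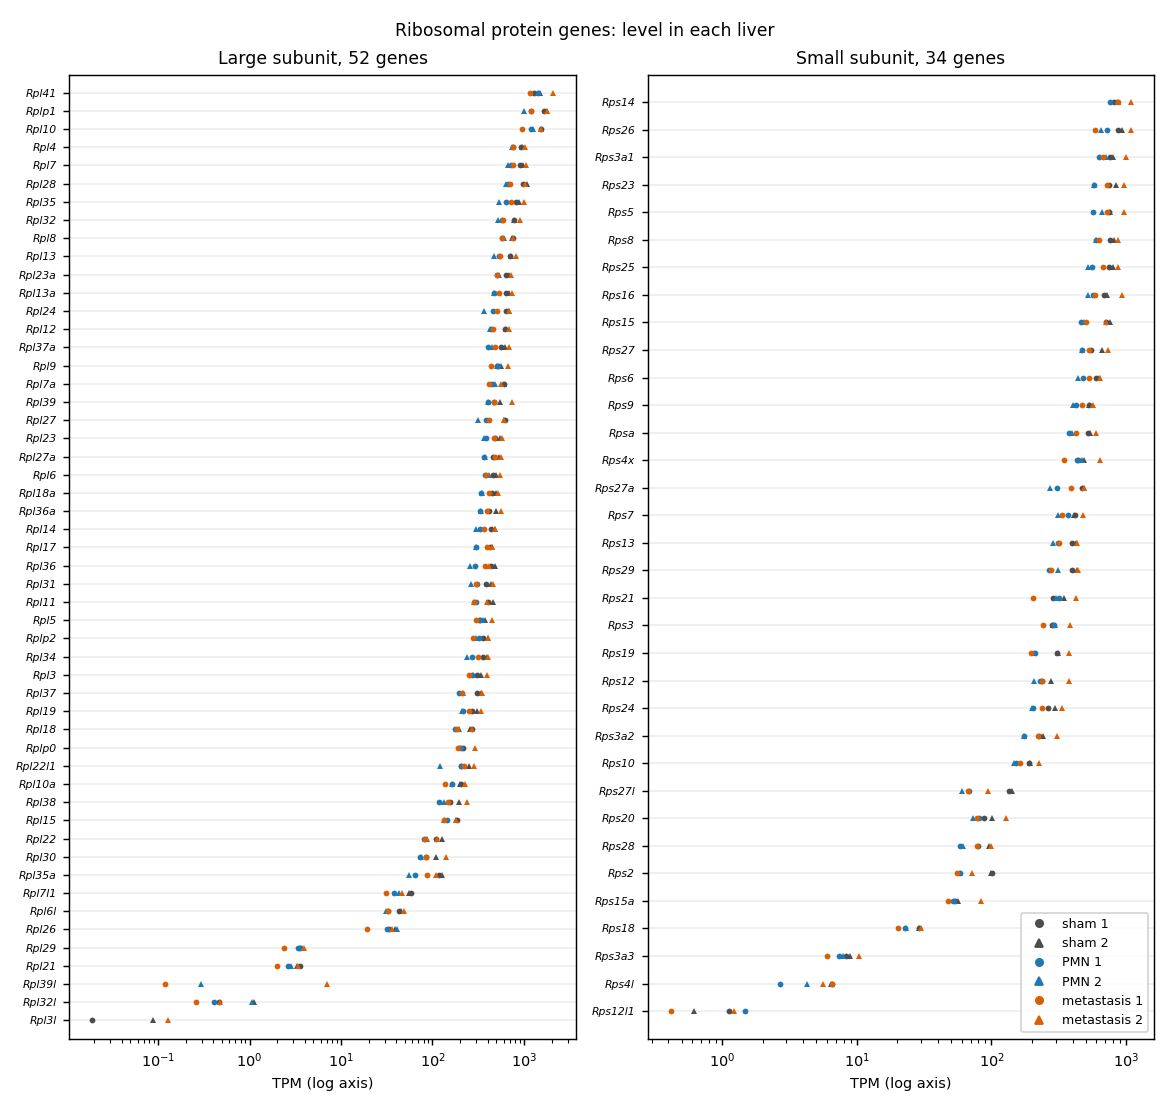
TPM (log axis) of members in each liver, 52 large subunit genes on the left and 34 of the 36 small subunit genes on the right, ordered by mean. Circles and triangles are the 2 livers of a group and values of 0 are not drawn. Most members lie between 100 and 1000 TPM, and the triangle of the second metastasis liver is often the rightmost point.

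Reads of these genes are hard to place, because the genome holds many copies, and the authors counted only reads that mapped to 1 place. To show how far this reaches, every 100-base window of a member's transcript (GENCODE M21) was searched in the transcripts of all other genes. In the median core gene, 45% of the windows also occurred in another gene. Rpl21 shared 36.8% of its windows, less than the median, with 40 other genes. Rpl29 shared 62% with 27, and Rps2, at 55.7 to 102 TPM, shared 62.3% with 36 genes. Members with high values shared as much: Rpl7a, at a mean of 519 TPM, shared 73.5% with 37 genes and Rpl10, at 1332 TPM, 91.6% with 10. Over the 77 core genes the shared percentage and mean TPM were nearly unrelated (Spearman's rho = -0.07, across genes, which are not independent). Levels are therefore compared below for a gene between livers. A TPM value given here is the level of the uniquely placed reads.

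Together the members took 1.71% (95% Wilson interval 1.706 to 1.714) and 1.851% of all counts in the sham livers. The PMN livers gave less, 1.279% and 1.286%. The metastasis livers gave 1.395% and 2.08%, 1 below and 1 above both sham livers. The intervals are at most 0.02 percentage points wide and cover counting error only. They overlap between the 2 PMN livers and between no other pair of livers. The mean share was 1.78% ± 0.0997 (SD, n = 2) in sham, 1.28% ± 0.00495 in PMN and 1.74% ± 0.484 in metastasis livers. With 2 against 2 livers the smallest p of an exact two-sided permutation test is 0.333, so none is given.

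The share depends on what else fills the library. The 100 most abundant genes, none of them a member, took 42.1% and 42.5% of the counts in sham but 54.2% to 57.4% in the other livers. Leaving these genes out of the total, the members took 2.97% and 3.2% in sham, 2.92% and 2.81% in PMN, and 3.27% and 4.79% in metastasis livers. PMN livers then lay only slightly below sham, and both metastasis livers above. Of the summed TPM the members made up 3.9% and 4.19%, 3.07% and 3%, and 3.18% and 4.58%. The ratio of large to small subunit TPM moved little, from 1.50 to 1.56.

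**Figure D2:**
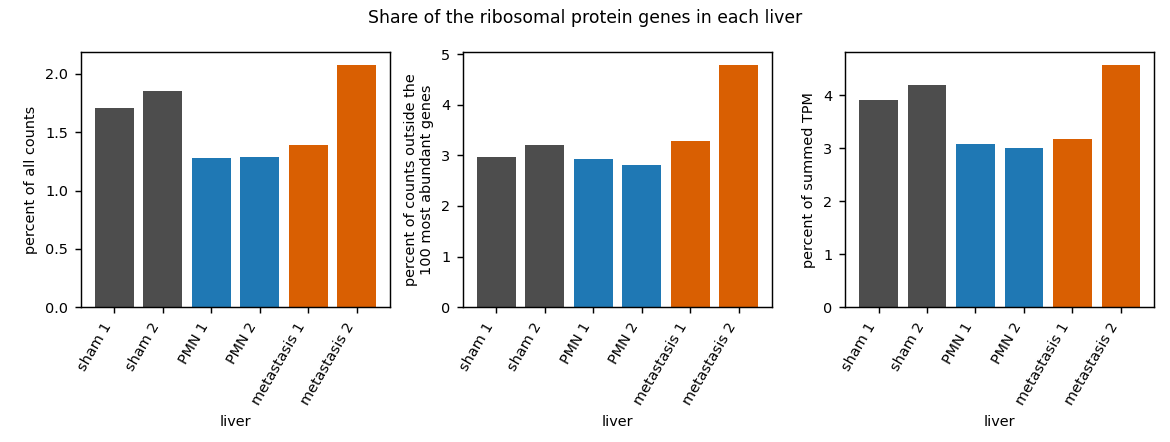
Percent of the ribosomal protein genes in each liver, as a share of all counts, of the counts outside the 100 most abundant genes, and of summed TPM; bars start at 0 and each is 1 liver. PMN livers are lower than sham in each panel, narrowly so in the middle one (2.92% and 2.81% against 2.97% and 3.2%), and the metastasis livers differ most between themselves.

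In PMN livers most ribosomal protein genes had slightly lower values than in sham livers, and none of them passed the test. The comparison asks whether a tumor in the cecum is accompanied by a change in the liver's ribosomal protein mRNAs before metastases form. The median log2 fold change of the 86 tested members was -0.24, against 0.01 for all 16370 tested genes, and 72 members were negative and 14 positive. Without TMM the median was -0.50 with all 86 negative, and on both TPM scales 83 were negative, with medians of -0.43 and -0.44. Relative to all genes the median was -0.25 with and without TMM and -0.33 and -0.27 on the TPM scales. With a liver left out the median ranged from -0.30 to -0.16, and the median log2 CPM of the members had a pooled SD of 0.19 between livers of a group. The fold changes of the members had an SD of 0.23, against 0.26 for the mitochondrial ribosomal proteins, 0.28 for the initiation factors and 1.37 for all genes. None was called by edgeR's quasi-likelihood test at an adjusted p under 0.05, a threshold that 7.3% of all tested genes passed in either direction. At an unadjusted p under 0.05, no member was higher (15.2% of all genes) and 6 were lower (11.8% of all genes): Rpl27, Rpl35a, Rpl36, Rps2, Rps27a and Rps27l. In 62 of the 86 members both PMN livers had a lower CPM than both sham livers, which held for 34% of all genes, and in 8 members both were higher, which held for 34.4%. The lower side was thus overfilled and the higher side underfilled relative to the background, while the size of the difference stayed small. The members are not independent: 67 of the 77 core genes were also higher in the second sham liver than in the first. Whether the split in PMN livers exceeds that between livers of a group was not tested.

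Rpl35a, a large subunit protein whose loss in people causes Diamond-Blackfan anemia, came closest to the threshold. Its CPM was 31.7 and 34.0 in sham, 20.3 and 16.2 in PMN, and 29.7 and 34.4 in metastasis livers. Both PMN livers were well below all 4 others, and the metastasis livers overlapped sham on this scale. In TPM both metastasis livers (87.74 and 108.9) lay below both sham livers (119.2 and 127.5). Its log2 fold change in PMN was -0.85 ± 0.20 (SE; edgeR adjusted p = 0.0585). DESeq2 called it (adjusted p = 0.0116), and over the 16 alternatives its adjusted p ranged from 0.00932 to 0.376. In the metastasis livers the value was -0.03 ± 0.20 (edgeR adjusted p = 0.926). The gene lies at chr16:33056453-33060189.

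Rps27l, the p53-inducible paralog of the zinc finger protein Rps27, had 163 and 175 CPM in sham, 97.3 and 81.3 in PMN, and 105 and 137 in metastasis livers. All 4 livers of tumor-bearing mice lay below both sham livers. The log2 fold change was -0.92 ± 0.22 in PMN (edgeR adjusted p = 0.0605) and -0.48 ± 0.22 in metastasis livers (edgeR adjusted p = 0.202). In PMN, DESeq2 gave an adjusted p of 0.00588, and over the alternatives the range was 0.00476 to 0.379. Rpl35a and Rps27l were the only members that DESeq2 called in this comparison, where it called 17.2% of all genes and 6.78% as lower. The same 2 members (2.33%) were lower by edgeR without TMM, against 4.89% of all genes, and by limma on log2(TPM + 1) and log2(TPM + 0.1), against 5.47% and 5.44%.

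The other members with a low unadjusted p were further from the threshold. Rpl27, a large subunit protein, had 203 and 196 CPM in sham against 148 and 112 in PMN livers, a log2 fold change of -0.62 ± 0.25 (edgeR adjusted p = 0.168). Rps2, at the entrance of the mRNA channel, had 51.8 and 50.8 against 35.2 and 32.9 CPM (-0.59 ± 0.19, edgeR adjusted p = 0.107), and its metastasis livers stayed low, with 36.2 and 43.1 CPM. Rpl36 had 154 and 167 against 120 and 97.7 CPM (-0.56 ± 0.20, edgeR adjusted p = 0.141). In metastasis livers Rpl27 and Rpl36 were near sham, at 0.02 ± 0.24 and 0.08 ± 0.20. For Rpl27, Rps2 and Rpl36 the PMN and sham livers did not overlap. Rps27a, which is made as a fusion with ubiquitin, had 171 and 179 against 133 and 109 CPM (-0.53 ± 0.21, edgeR adjusted p = 0.162). Fau, made as a fusion with a ubiquitin-like protein, had a log2 fold change of -0.56 ± 0.20 and did not pass (edgeR adjusted p = 0.135).

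The count of calls in PMN livers differed between fits with different livers. With only the sham and PMN livers in the fit, 11 of 86 members were lower (12.8%), against 14.2% of all genes, and none was higher, against 16.3%. Leaving out the first or the second metastasis liver gave 10 and 9 lower members, against 12% and 12% of all genes, and no higher member, against 14.5% and 14.3%. The share of members called was thus near or below the background in each of these fits. They included Rpl27, Rpl28, Rpl35a, Rpl36, Rpl37, Rps2, Rps15, Rps27a and Rps27l.

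In metastasis livers the ribosomal protein genes lay on the other side of sham when scaled by TMM, but the difference came mainly from 1 of the 2 livers. The comparison asks how the same genes stand once tumor cells have been seeded through the spleen. The median log2 fold change was 0.22 (0.04 for all genes), with 74 members positive and 12 negative; without TMM it was -0.04, and on the TPM scale -0.09 or -0.10, so its direction against sham depends on the scaling. The all-gene median moved as well, and relative to it the members stood at 0.18 with TMM, 0.19 without, and 0.07 and 0.16 on log2(TPM + 1) and log2(TPM + 0.1). None of the members was called by edgeR, against 10.7% of all genes, nor by DESeq2, against 21.6%. Rps14 was the single member higher at an unadjusted p under 0.05 (17.2% of all genes), and no member was lower (13%). In 33 members both metastasis livers were above both sham livers (30.4% of all genes), close to the background. In 3 (Rpl7l1, Rps2 and Rps27l) both were below, against 30% of all genes.

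Rps14, a small subunit protein whose gene is lost in the 5q- form of myelodysplasia, had 214 and 229 CPM in sham, 239 and 249 in PMN, and 292 and 339 in metastasis livers. On this scale the 3 groups followed each other without overlap, while in TPM the PMN livers (765 and 852) overlapped sham (806 and 863). The log2 fold change was 0.51 ± 0.20 in metastasis (edgeR adjusted p = 0.142) and 0.14 ± 0.20 in PMN livers (edgeR adjusted p = 0.691). Rpl39, at the wall of the exit tunnel, had 91.6 and 105 CPM in sham, 92.3 and 86.5 in PMN, and 115 and 170 in metastasis livers. Its 2 metastasis livers were the highest, and the fold change was 0.53 ± 0.25 (edgeR adjusted p = 0.203), from 0.22 without the second to 0.79 without the first of them. Its paralog Rpl39l was at 0 in 3 livers, at 0.124 and 0.0583 CPM in the second PMN and first metastasis liver, and at 3.21 CPM in the second metastasis liver alone.

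The 2 metastasis livers disagreed more than the livers of the other groups. All 77 core members had a higher CPM in the second than in the first metastasis liver, by a median of 0.42 on the log2 scale (from 0.05 for Rpl36 to 0.97 for Rps21). The same difference was 0.11 between the sham livers, with 67 of 77 higher in the second, and -0.10 between the PMN livers, with 16 of 77. Over all genes with at least 10 counts in each liver the median difference in the metastasis livers was 0.003, which TMM scaling centres near 0, and the quartiles were -0.47 and 0.50. A second liver higher by over 0.5 on the log2 scale or lower by as much was found for 48.9% of all genes and 31.2% of the core genes. The second metastasis liver was the highest of the 6 for 79 of the 86 members (91.9%), against 15.5% of all genes. The second PMN liver was the lowest for 57 (66.3%), against 14.3%. Relative to the sham mean, the median core gene stood at 0.03 in the first metastasis liver and at 0.42 in the second on the log2 scale.

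**Figure D3:**
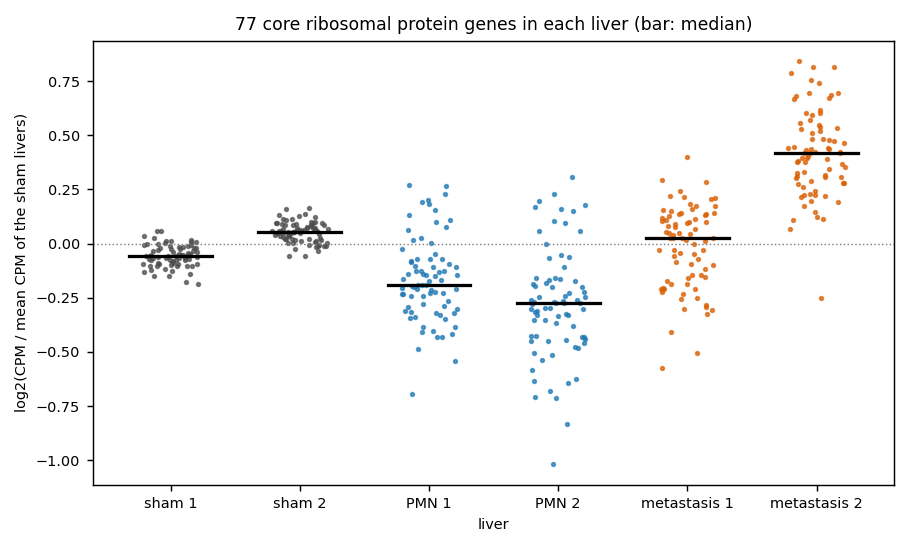
log2 of CPM over the mean CPM of the 2 sham livers for the 77 core genes, 1 point per gene and liver, with the median as a bar. The medians are -0.06 and 0.06 in sham, -0.19 and -0.27 in PMN, and 0.03 and 0.42 in metastasis livers; CPM is scaled by TMM, and without TMM the median metastasis fold change of all 86 tested members is -0.04.

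Without the first metastasis liver, 20 of 87 tested members were higher in metastasis than in sham livers (23%, against 9.58% of all genes), and the median was 0.42. They included Rplp0, Rpl3, Rpl5, Rpl38, Rpl39, Rpl41, Rps3 and Rps14. Without the second metastasis liver none was higher (17.3% of all genes were), Rps27l and Rpl7l1 were lower (15.4% of all genes were lower), and the median was 0.02. A single liver then stood for its group and was assumed to vary like the others.

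The marker sums of several cell types also differed between the 2 metastasis livers, while those of others were close. The 8 neutrophil markers summed to 1003 CPM in the first and 409 CPM in the second, against 2.07 and 3.28 in sham and 270 and 616 in PMN livers, and all 8 rose in both comparisons, with Mpo, Elane and Camp at 0 in both sham livers. The 6 macrophage markers, all 6 of them risen in both comparisons, summed to 463 and 759 CPM in metastasis, 598 and 812 in PMN, and 149 and 151 in sham livers. The 5 erythroid markers, all 5 risen in metastasis livers, summed to 1529 and 1076 CPM there and to between 205 and 372 CPM in the other 4 livers. Of the 5 proliferation markers 4 rose in metastasis and 1 in PMN livers. They summed to 74.9 and 62.3 CPM in metastasis, 24.9 and 32.5 in PMN, and 14.3 and 8.35 in sham livers. The mitochondrially encoded genes took 5.62% and 3.02% of counts in the metastasis livers, 2.93% and 2.45% in PMN and 5.60% and 5.34% in sham livers. The 7 hepatocyte markers, of which 1 rose in PMN and 1 fell in metastasis livers, summed to 176600 and 122100 CPM in metastasis, 142300 and 103500 in PMN, and 116400 and 109300 in sham livers. The 4 endothelial markers, of which 3 rose in both comparisons, summed to 186 and 115, 142 and 156, and 53.3 and 56.0 CPM in the same order. The 5 stellate and fibroblast markers, of which 2 rose in metastasis livers, summed to 332 and 362, 213 and 206, and 190 and 177 CPM. The 4 cholangiocyte and epithelial markers, of which 1 rose in metastasis livers, summed to 3.99 and 4.51, 2.37 and 2.35, and 1.48 and 2.81 CPM. The T and NK cell markers summed to 6.38 and 5.74, 3.08 and 4.61, and 2.66 and 1.97 CPM. The B cell markers summed to 1.63 and 3.34, 0.967 and 1.36, and 2.955 and 3.145 CPM. No T, NK or B cell marker was called. The part of these differences in the ribosomal protein values was not tested.

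With TMM, the members stood further apart between metastasis and PMN livers than either group stood from sham. The median log2 fold change was 0.46 (0.03 for all genes), 83 members were positive and 3 negative, and this direction held under each alternative tried. Without TMM it was also 0.46, smaller in size than the -0.50 of PMN livers against sham. On log2(TPM + 1) and log2(TPM + 0.1) it was 0.34 and 0.35, against -0.43 and -0.44. Relative to all genes it was 0.44, 0.38 and 0.44 on these scales, against -0.25, -0.33 and -0.27. Between metastasis and PMN livers no member and no other gene was called by edgeR (0% of all genes). DESeq2 called 3.47% of the genes and none of the 84 members to which it gave an adjusted p. At an unadjusted p under 0.05, 26 members were higher (6.99% of all genes) and none lower (6.41%). In 65 members both metastasis livers were above both PMN livers (21.9% of all genes), and in none were both below (21.5%). The largest difference of a core gene was that of Rpl35a, at 0.81 ± 0.20 (edgeR adjusted p = 0.285). Without the second metastasis liver it was the single member called higher (1.16%), against 7.53% of all genes. Rpl38, linked to the translation of Hox mRNAs, had 44.3 and 55.9 CPM in sham, 39.6 and 41.8 in PMN, and 52.5 and 81.0 in metastasis livers, a difference of 0.71 ± 0.26 between the last groups (edgeR adjusted p = 0.349), from 0.37 without the second to 0.99 without the first metastasis liver. Both of its PMN livers lay below every other liver.

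The subunits followed each other. In PMN livers the median was -0.26 for the 46 large and -0.20 for the 31 small subunit core genes, and in metastasis livers 0.20 and 0.27. The 6 retrocopies had medians of -0.11 and 0.21.

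The acidic stalk, the flexible arm that recruits elongation factors, consists of Rplp0, Rplp1 and Rplp2. Rplp1 had 346 and 369 CPM in sham, 292 and 230 in PMN, and 320 and 444 in metastasis livers. Rplp2 had 71.8 and 82.0, 77.7 and 67.0, and 72.5 and 96.6 CPM. Rplp0, their anchor, had 131 and 121, 144 and 135, and 145 and 210 CPM. The PMN livers of Rplp1 lay below sham, those of Rplp2 overlapped it and those of Rplp0 lay above it. The log2 fold changes in PMN were -0.45 ± 0.25, -0.09 ± 0.22 and 0.15 ± 0.24, and in metastasis livers 0.10 ± 0.25, 0.14 ± 0.22 and 0.50 ± 0.24. None passed (smallest edgeR adjusted p = 0.215, for Rplp0), and the 3 differences were not tested against each other. Without TMM, Rplp0 turned to -0.11 in PMN, and Rplp1 and Rplp2 turned to -0.16 and -0.13 in metastasis livers.

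Rpl5 and Rpl11, which join the 5S RNA before they enter the large subunit, differed in sign. Rpl5 had 301 and 337 CPM in sham, 342 and 354 in PMN, and 342 and 482 in metastasis livers. Rpl11 had 286 and 328, 247 and 224, and 258 and 332 CPM. In PMN livers Rpl5 lay above and Rpl11 below both sham livers, at 0.13 ± 0.24 and -0.39 ± 0.22 (edgeR adjusted p = 0.772 and 0.316). In metastasis livers the values were 0.37 ± 0.24 and -0.06 ± 0.22 (edgeR adjusted p = 0.343 and 0.882). Without TMM the PMN value of Rpl5 turned to -0.13. In the list of 15 genes for ribosome stress and p53, Pmaip1, a p53 target that promotes apoptosis, was the single called gene, with 0.566 and 0.453 CPM in sham, 2.04 and 1.83 in PMN, and 4.66 and 3.88 in metastasis livers. It rose by 1.92 ± 0.37 (edgeR adjusted p = 0.0360) and 3.06 ± 0.38 (edgeR adjusted p = 0.00987) on the log2 scale.

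Of the remaining members with known roles outside or at the edge of the ribosome, Rps6, the substrate of S6 kinase, had 370 and 388 CPM in sham, 348 and 301 in PMN, and 417 and 469 in metastasis livers. On this scale the 3 groups did not overlap, and the fold changes were -0.23 ± 0.20 and 0.22 ± 0.20 on the log2 scale (edgeR adjusted p = 0.518 and 0.494). Without TMM the metastasis value of Rps6 was -0.04. Rpsa, also known as a laminin receptor, had 428 and 444, 369 and 361, and 444 and 590 CPM (-0.26 ± 0.22 and 0.25 ± 0.22). Rpl13a, part of an interferon-induced complex that silences mRNAs, had 287 and 314, 251 and 240, and 310 and 403 CPM (-0.30 ± 0.22 and 0.24 ± 0.22). For both, the PMN livers were the 2 lowest of the 6. Rps19, the gene most often hit in Diamond-Blackfan anemia, had 135 and 136 CPM in sham, 109 and 101 in PMN, and 110 and 194 in metastasis livers. Its first metastasis liver lay near the PMN livers and its second stood far above, at -0.37 ± 0.29 and 0.17 ± 0.29. Rps3, which sits at the mRNA entry and is also a DNA repair nuclease, had 236 and 239 CPM in sham, 287 and 272 in PMN, and 257 and 382 in metastasis livers. It was higher than sham in all 4, at 0.23 ± 0.25 and 0.43 ± 0.25, the largest positive value of a member in PMN livers. Without TMM this PMN value was -0.03, and that of Rpl41, 0.22 ± 0.28 with TMM, was -0.04. The signs of Rps14 and Rps4x in PMN livers (0.14 ± 0.20 and 0.15 ± 0.28) likewise turned, to -0.12 and -0.11.

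**Figure D4:**
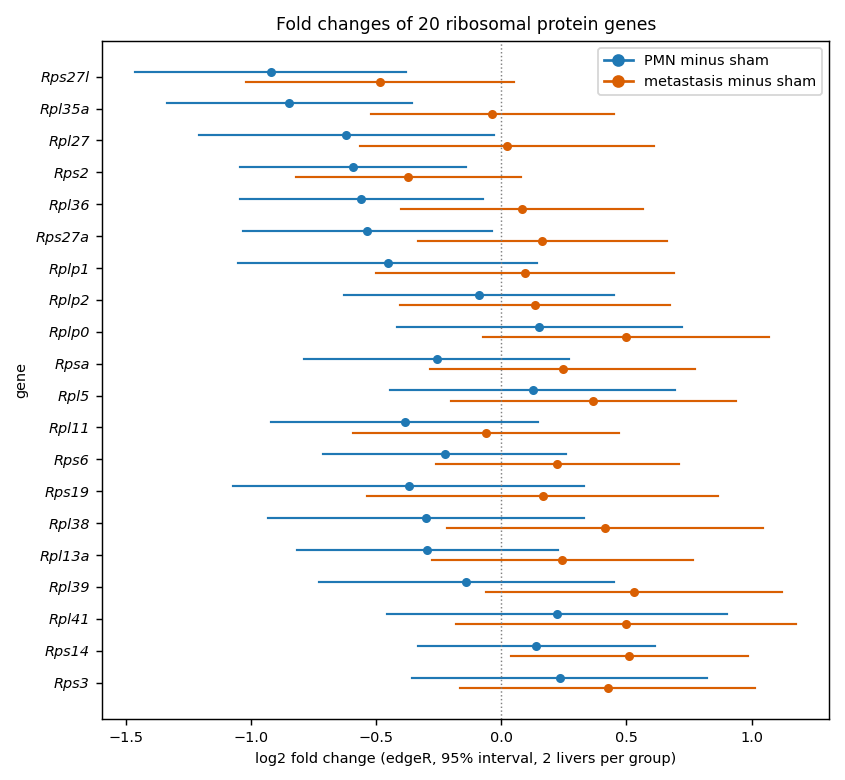
log2 fold change of 20 members in PMN (blue) and metastasis livers (orange) against sham, with 95% intervals from edgeR, 2 livers per group. The interval of 6 genes (Rps27l, Rpl35a, Rpl27, Rps2, Rpl36 and Rps27a) lies below 0 in PMN livers and that of Rps14 above 0 in metastasis livers; none passed after adjustment, and without TMM the PMN values of Rplp0, Rpl5, Rpl41, Rps14 and Rps3 and the metastasis values of Rplp1, Rplp2, Rpsa, Rps6, Rps19, Rps27a, Rpl13a, Rpl27 and Rpl36 change sign.

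Paralogs can replace a ribosomal protein in the ribosome, and the share of the paralog in its pair does not depend on library scaling. It rests on uniquely placed reads and is compared only between livers, since 98.4% of the windows of Rps27 and none of Rps27l occurred in another gene. Rps27l made up 19.6% and 17.9% of the Rps27l and Rps27 TPM in sham, 12.6% and 11.4% in PMN, and 11.3% and 11.4% in metastasis livers. The sham livers were apart from all 4 others. Rps27 itself changed by -0.18 ± 0.22 and 0.35 ± 0.22 on the log2 scale (edgeR adjusted p = 0.658 and 0.336). With 2 livers per group, the shares are given as values and were not tested. Rpl22l1, whose level Rpl22 holds down in other tissues, made up 64.9% and 66.3% of the pair in sham, 71.7% and 58.1% in PMN, and 72.9% and 71.6% in metastasis livers. Here the PMN livers lay on either side of sham. Its fold changes were -0.27 ± 0.31 and 0.45 ± 0.31, and that of Rpl22 in PMN was -0.31 ± 0.21. The PMN value of Rpl22l1 rested on the second liver, which had 33.0 CPM against 59.3 in the first.

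Rpl7l1, a nucleolar protein of large subunit assembly, made up 6.06% and 5.40%, 5.00% and 5.92%, and 3.88% and 4.15% of its pair with Rpl7. The metastasis livers had the 2 lowest shares. Its fold changes were -0.30 ± 0.22 and -0.28 ± 0.22, the latter from -0.54 without the second to -0.05 without the first metastasis liver, and that of Rpl7 in PMN was -0.22 ± 0.23. Rps4l made up 1.46% and 1.31%, 0.624% and 0.895%, and 1.85% and 0.879% of its pair with Rps4x, at 2.71 to 6.57 TPM, and changed by -0.72 ± 0.31 in PMN livers (edgeR adjusted p = 0.190). Rpl39l stayed under 1% of its pair and Rpl3l under 0.1%. Rpl10 had 548 and 538 CPM in sham, 493 and 485 in PMN, and 433 and 643 in metastasis livers (-0.15 ± 0.25 in PMN), and its paralog Rpl10l was not analysed here. Rpl3 changed by -0.04 ± 0.25 and Rpl39 by -0.14 ± 0.25 in PMN livers.

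**Figure D5:**
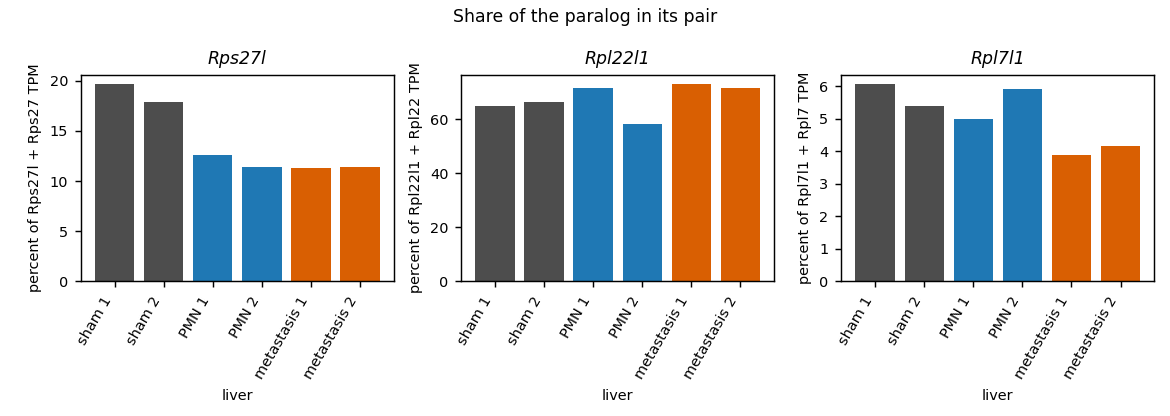
Percent of the paralog in the summed TPM of the paralog and its partner, 1 bar per liver from 0, for Rps27l, Rpl22l1 and Rpl7l1. Rps27l falls from 19.6% and 17.9% in sham to between 11.3% and 12.6% in the other 4 livers.

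The lists of related genes are read against all tested genes, of which 4.92% were higher and 2.38% lower in PMN livers, and 6.78% and 3.95% in metastasis livers. Of the 12 tested elongation factors none passed in any comparison, with medians of -0.28 in PMN and -0.01 in metastasis livers. Eef1a1, which brings the aminoacyl-tRNA, was at 3949 and 4016 CPM in sham, 4167 and 4543 in PMN, and 3441 and 4597 in metastasis livers. None of the 39 initiation factors and poly(A) binding proteins passed either (medians -0.14 and 0.03). Among 84 ribosome biogenesis genes, Nhp2, a protein of the pseudouridylation complex, fell in PMN livers, with 41.2 and 38.1 CPM in sham against 18.5 and 18.7 (-1.09 ± 0.21, edgeR adjusted p = 0.0335). In metastasis livers Nop2, an rRNA methyltransferase, fell by 1.13, Bysl, a factor of small subunit maturation, by 1.07 and Polr1a, the largest subunit of RNA polymerase I, by 0.92 on the log2 scale (edgeR adjusted p = 0.0253, 0.0491 and 0.0486). No biogenesis gene rose. The medians of this list were -0.22 and -0.01.

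Of the 42 genes of mTORC1 and 5′ TOP control, none passed in PMN livers. In metastasis livers Mxd1 and Mxd3, partners of Max that oppose Myc, rose and Eif4ebp2, an inhibitor of cap-dependent initiation, fell by 1.03 (edgeR adjusted p = 0.0442, 0.0244 and 0.040). Larp1 was between 66.9 and 89.7 CPM in all livers, at -0.00 ± 0.19 and -0.26 ± 0.19. Of the 17 genes of the integrated stress response, which lowers initiation, Chac1, a glutathione-degrading enzyme, rose in PMN livers (2.66 and 1.27 against 19.5 and 9.59 CPM, edgeR adjusted p = 0.0316). In metastasis livers 4 rose: Chac1 and the amino acid synthesis genes Asns, Psat1 and Phgdh. Asns had 0 and 0.181 CPM in sham, 1.30 and 1.05 in PMN, and 5.34 and 7.97 in metastasis livers (edgeR adjusted p = 0.0156). Of the 18 genes of ribosome rescue, Usp10, which removes ubiquitin from stalled small subunits, fell in metastasis livers by 0.86 (edgeR adjusted p = 0.0462).

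The mitochondrial ribosomal proteins, a separate family that builds the ribosome inside mitochondria, had medians of -0.70 in PMN and -0.46 in metastasis livers. Of 81 genes 9 fell and none rose in PMN livers, and 1 fell in metastasis livers, against 2.38% and 3.95% of all genes that were lower. Mrps35 fell in both comparisons, with 28.9 and 33.1 CPM in sham, 14.6 and 13.6 in PMN, and 18.3 and 14.5 in metastasis livers (edgeR adjusted p = 0.0312 and 0.0412). In PMN livers Mrps36 and Mrpl47 also were among those that fell, by 1.2 and 1.24 on the log2 scale (edgeR adjusted p = 0.0262 and 0.0449). Whether the mitochondrial and cytosolic families differed was not tested.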

How the data were processed

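The authors aligned the poly(A) RNA reads of 6 livers to mm10 with HISAT2 2.1.0, counted uniquely mapped exon reads with featureCounts (Subread 2.0.6) and deposited raw counts, and the authors computed the deposited TPM from them. The annotation and strand setting are not given in the sources used here, so antisense overlap is not resolved. Column names gave each liver its group.

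Here, edgeR 4.0.16 (R 4.3.3) tested the counts with the quasi-likelihood test, TMM, filterByExpr (minimum 10), 1 fit over 6 livers and Benjamini-Hochberg adjustment over 16370 genes at 0.05. Folds are log2 with SE. Libraries held 32838321 to 43368309 counts, and 0 counts allows up to 3 (0.0679 to 0.0928 CPM). The members, lists and tests were chosen with earlier results of these data known. Members named were those called (none), the extremes of abundance, 12 chosen for role and the paralog pairs; Rpl35a, Rpl27, Rpl36, Rps2 and Rps14 were added after their values were seen. In other lists, up to 3 called genes per direction were named, and Chac1, named for PMN livers, was also given for metastasis livers. Alternatives were DESeq2 1.42.0, other filters, scalings, limma 3.58.1 on log2(TPM + 1) or log2(TPM + 0.1), fewer livers and a replicate block. The procedure was tested on simulated data with equal spread in all groups and larger changes than any tested member showed. That test does not cover differences as small as those of the members. Some genes that the naming rule covers are not reported here.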

Additional observations from a re-analysis of the deposited data

Results flagged for a closer look

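For 10 named members both PMN livers lay below and both metastasis livers above the sham mean of CPM. From PMN to metastasis livers the log2 step was 0.50 for Rpsa, 0.45 for Rps6, 0.70 for Rps27a, 0.71 for Rpl38, 0.54 for Rpl13a, 0.67 for Rpl39, 0.53 for Rps27, 0.48 for Rpl7, 0.93 for Rps4l and 0.64 for Rpl36. By the edgeR test of this difference none passed (adjusted p from 0.301 for Rps27a to 0.409 for Rpl7). Both values of a gene against sham share the sham livers. The pattern held for 32 of the 77 core genes (41.6%), against 4.03% of all tested genes, on TMM-scaled CPM. With library size without TMM, a scaling applied to this count after seeing the data, it held for 1 of the 77 (1.3%), against 2.94% of all genes, and for 0 of the 10 named members. That scaling shifts all genes, with all-gene medians of -0.25 in PMN and -0.23 in metastasis livers, and relative to these the ribosomal protein median was -0.25 and 0.19, against -0.25 and 0.18 with TMM. The count against sham thus changes with the scaling, and the position relative to all genes changed little. Without TMM the metastasis fold changes of Rpsa, Rps6, Rps27a, Rpl13a and Rpl36 were -0.02, -0.04, -0.10, -0.02 and -0.19. The closeness of the first metastasis liver to sham is part of it, with log2 values over sham of 0.03 for Rpsa, 0.04 for Rpl13a and Rpl7 and 0.05 for Rps27a and Rpl36.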

How the results depend on the processing

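With 2 livers per group, small differences could not be called, and the levels are those of uniquely placed reads. Scaling moved all genes together. Library size without TMM shifted the all-gene median to -0.25 in PMN and -0.23 in metastasis livers, and the ribosomal protein median to -0.50 and -0.04, so that relative to all genes it was -0.25 and 0.19. On log2(TPM + 1) and log2(TPM + 0.1) the metastasis median was -0.09 and -0.10, and the PMN median was -0.44 with the latter. Relative to all genes, the medians were -0.33 and 0.07 on the first of these scales and -0.27 and 0.16 on the second. In PMN livers 2 members were lower with DESeq2, with library size without TMM and with limma on either TPM scale (Rpl35a and Rps27l each time, 2.33% of members, against 6.78%, 4.89%, 5.47% and 5.44% of all genes), and 11 with only the 2 groups compared. The cause was not tested.

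Leaving out each liver in turn gave 0 to 10 lower members in PMN, 0 to 20 higher and 0 to 2 lower in metastasis livers, and 0 to 1 higher (Rpl35a, against 7.53% of all genes in that fit) between them. By over 1.5 times or in sign, leaving out a liver moved 16 of the 29 single-gene fold changes given for PMN. It moved 20 of the 23 for metastasis livers and 6 of the 11 between metastasis and PMN livers. The metastasis median ranged from 0.02 without its second liver to 0.42 without its first, and the median between metastasis and PMN livers from 0.23 to 0.66. The PMN values ranged from -0.33 to -0.10 for Rps6 and -0.63 to -0.27 for Rplp1, and the metastasis values from 0.21 to 0.75 for Rplp0, 0.10 to 0.60 for Rpl5 and 0.11 to 0.69 for Rps3. The lone liver left in a group was assumed to vary like the other groups.

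Of the 1008 fold changes of single genes under an alternative, 56 changed sign. In PMN livers, library size without TMM gave -0.11 for Rplp0 and Rps4x, -0.13 for Rpl5, -0.12 for Rps14, -0.03 for Rps3 and -0.04 for Rpl41. Both TPM scales gave -0.04 for Rplp0 and Rps4x, -0.06 for Rpl5 and -0.05 for Rps14. In metastasis livers, library size without TMM gave -0.16 for Rplp1, -0.13 for Rplp2, -0.02 for Rpsa and Rpl13a, -0.04 for Rps6, -0.09 for Rps19, -0.10 for Rps27a, -0.24 for Rpl27 and -0.19 for Rpl36. Both TPM scales gave -0.22, -0.17, -0.07 and -0.06, -0.07, -0.19, -0.14, -0.29 and -0.21 for the same genes in this order. TMM without the 100 most abundant genes gave -0.01 for Rpl27. With a liver left out, the PMN values ranged from -0.20 to 0.04 for Rplp2, -0.11 to 0.03 for Rpl3 and -0.75 to 0.11 for Rpl22l1. The metastasis values ranged from -0.16 to 0.32 for Rplp1, -0.08 to 0.33 for Rplp2, -0.25 to 0.12 for Rpl11, -0.30 to 0.52 for Rps19, -0.14 to 0.07 for Rpl35a and -0.21 to 0.23 for Rpl27.

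Without the 100 most abundant genes the share of counts in the livers, in the order sham, PMN and metastasis, was 2.972% and 3.196%, 2.923% and 2.81%, and 3.274% and 4.792%. Without the mitochondrially encoded genes it was 1.812% and 1.956%, 1.318% and 1.318%, and 1.478% and 2.145%. Of summed TPM it was 3.899% and 4.19%, 3.072% and 3%, and 3.181% and 4.576%.

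The replicate numbers did not pair the livers (correlations of deviations -0.04, 0.10 and 0.06). With the replicate block the count of members called stayed 0, with medians of -0.23, 0.22 and 0.46, while the lower calls of all genes in PMN livers went from 389 to 259.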
